A study of Drosophila melanogaster with 12 samples.

Results

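The report covers 7 genes of Drosophila melanogaster that encode enzymes of mitochondrial fatty acid oxidation, out of 16413 gene names in a table of RNA-seq read counts from whole larvae. They were chosen by name: the carnitine palmitoyltransferase whd, the acyl-CoA dehydrogenases CG12262 (Mcad), CG7461 (Acadvl), CG3902 and CG4860, the 3-hydroxyacyl-CoA dehydrogenase scu and the thiolase yip2. All 7 passed the filter on low counts, which left 10045 genes. The 4 groups, with 3 libraries each (A, B and C), were mlx1 larvae on a high sugar diet (HSD), wild-type larvae on HSD, mlx1 larvae on a low sugar diet (LSD) and wild-type larvae on LSD. The mlx1 line lacks Mlx, with which the sugar-responsive transcription factor Mondo binds DNA, in the whole animal. The HSD was 10% yeast with 20% sucrose, and larvae were collected 8 h after transfer to it. The LSD was 10% yeast alone, and larvae were collected 1.5 h after transfer. All were labelled 3rd instar. Eggs had been laid over 3 h, larvae of all groups were moved to 10% yeast 24 h later and to the final diet after 24 h more, and non-feeding larvae were removed 1.5 h after that. Each diet contrast therefore also holds the difference in hours, and the column names add a tag that is L3 for all HSD and L2 for all LSD libraries, so diet, hours and tag cannot be told apart. There was 1 mutant and 1 control line, so genotype and other differences between the lines cannot be told apart either.

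Fatty acids are burned in mitochondria after being coupled to coenzyme A. Carnitine palmitoyltransferase, the step inhibited by malonyl-CoA, moves long chains towards the matrix. There acyl-CoA dehydrogenases of different chain-length preference, an enoyl-CoA hydratase, a 3-hydroxyacyl-CoA dehydrogenase and a thiolase shorten the chain in repeated rounds and release acetyl-CoA. In insect larvae the pathway draws on fat body stores when dietary carbohydrate is scarce, while sugar feeding favours the opposite pathway of fatty acid synthesis.

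The libraries held 8924342 to 12507970 counts. Mlx itself, listed as bigmax, averaged 0.892 ± 0.168 CPM in mlx1 and 32.6 ± 1.92 CPM in wild type on HSD, and 0.693 ± 0.201 CPM in mlx1 and 27.0 ± 0.730 CPM in wild type on LSD (normalized read counts scaled to library size, SD, n = 3 each), in the direction of the genotype labels. Genes of the larval cuticle, whose expression peaks near moults, differed between libraries of a group. Their mean over 10 tested genes of 14 was lowest in mlx1 LSD library A (4.27 log2 CPM, against 5.35 and 6.62 in the other mlx1 LSD libraries), wild-type LSD library A (4.84 against 6.67 and 7.02) and wild-type HSD library C (3.51 against 4.77 and 5.31). Coverage along genes also differed. The median log2 ratio of the 5′-most to the 3′-most exon, centred per gene over 2195 genes, was -0.02, 0.03 and -0.13 in mlx1 HSD libraries A, B and C, 0.06, 0.26 and 0.08 in wild-type HSD, 0.19, -0.05 and -0.02 in mlx1 LSD, and -0.02, -0.15 and -0.21 in wild-type LSD. The wild-type HSD libraries thus held relatively more reads near 5′ ends than the wild-type LSD libraries. The 5′ to 3′ ratios did not overlap between wild-type HSD and wild-type LSD, nor between the genotypes on HSD. The cuticle means of the libraries overlapped between the groups in each diet and genotype contrast. The median cuticle gene was still lower on HSD than on LSD, with a log2 fold change of -1.97 in wild type and -1.46 in mlx1.

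Of the 7 genes, 4 had a shared pattern: CG12262, CG3902, CG4860 and yip2 were lower on HSD than on LSD in wild type, and higher in mlx1 than in wild type on HSD. CG7461 was called in the opposite direction in both comparisons, and whd was called in neither. In mlx1 larvae no member differed between the diets beyond the call threshold. Calls were made by edgeR's quasi-likelihood test over all genes with a Benjamini-Hochberg adjusted p under 0.05, and each log2 fold change is given with its standard error. In whole-larva RNA, fewer cells of a type and less RNA per cell cannot be told apart.

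whd (2R:6356978-6366072, minus strand) encodes the carnitine palmitoyltransferase, the entry step of the pathway. It had 139.5, 117 and 106 CPM in mlx1 HSD libraries A, B and C, against 87.3, 89.3 and 104 CPM in wild-type HSD. It had 107, 105 and 93.0 CPM in mlx1 LSD, against 82.0, 101 and 85.6 CPM in wild-type LSD. All 3 mlx1 HSD libraries lay above all 3 wild-type HSD libraries, narrowly at the nearest pair, and the LSD groups overlapped. The log2 fold change of mlx1 over wild type was 0.37 ± 0.13 on HSD (adjusted p = 0.0800) and 0.18 ± 0.13 on LSD (adjusted p = 0.477), neither called. On HSD it was called in 3 of 26 alternative settings, with the cuticle mean in the model (adjusted p = 0.0470), without the 3 libraries lowest in cuticle genes (0.0404) and from the 3′-most exon alone (0.0451). HSD over LSD gave 0.25 ± 0.13 in mlx1 (adjusted p = 0.164) and 0.06 ± 0.13 in wild type (adjusted p = 0.747), with 95% intervals of -0.03 to 0.53 and -0.21 to 0.34.

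CG12262, the medium-chain acyl-CoA dehydrogenase (3L:7712450-7714572, plus strand), had the widest differences among the members. It had 393, 404 and 398 CPM in mlx1 HSD and 94.8, 92.8 and 139 CPM in wild-type HSD. It had 484, 393 and 334 CPM in mlx1 LSD and 314, 281 and 286 CPM in wild-type LSD. The 3 wild-type HSD libraries were the lowest of the 12, and both pairs of genotypes were without overlap. In wild type it fell by 1.43 ± 0.17 on the log2 scale on HSD against LSD (adjusted p = 0.000169), while in mlx1 the same contrast was -0.02 ± 0.16 (adjusted p = 0.942). On HSD it was 3.66-fold higher in mlx1 than in wild type (log2 fold change 1.87 ± 0.17, adjusted p = 2.08e-05), and on LSD the log2 fold change of 0.46 ± 0.16 was not called (adjusted p = 0.169).

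CG3902 (3L:18886220-18891393, minus strand), another acyl-CoA dehydrogenase, had the highest level per length of the 7 in 3 of the 4 groups. It had 748, 812 and 804 CPM in mlx1 HSD, against 297, 234 and 286 CPM in wild-type HSD. It had 943, 632 and 663 CPM in mlx1 LSD, against 572, 429 and 414 CPM in wild-type LSD. Every mlx1 library exceeded every wild-type library, and library A stood highest in both LSD groups. On HSD it was 2.89-fold higher in mlx1 (log2 fold change 1.53 ± 0.17, adjusted p = 0.000115). In wild type it fell by 0.79 ± 0.17 on HSD against LSD (adjusted p = 0.00652). On LSD the genotype difference of 0.66 ± 0.17 missed the threshold (adjusted p = 0.0554), and it was called in 12 of 26 alternative settings, with adjusted p between 0.00549 and 0.262 over all 26. With the library letter as a block it was 0.66 (adjusted p = 0.0354), though a pairing of libraries by letter was not established.

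CG4860 (3R:8045603-8047186, minus strand), the least abundant of the dehydrogenases, rests on 22 to 132 reads per library. It had 7.70, 9.14 and 8.81 CPM in mlx1 HSD, against 3.71, 2.26 and 3.41 CPM in wild-type HSD. It had 10.7, 7.08 and 6.82 CPM in mlx1 LSD, against 6.56, 6.15 and 4.66 CPM in wild-type LSD. The mlx1 libraries were again all above the wild-type libraries of the same diet. The log2 fold change of mlx1 over wild type on HSD was 1.45 ± 0.24 (adjusted p = 0.00178), and HSD over LSD in wild type was -0.89 ± 0.24 (adjusted p = 0.0205). The fall in wild type was not called without wild-type HSD library B (adjusted p = 0.0877), wild-type LSD library A (0.0557) or wild-type LSD library B (0.0674).

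CG7461 (2R:15192677-15194689, plus strand), the very long-chain acyl-CoA dehydrogenase, went the other way. It had 277, 282 and 283 CPM in mlx1 HSD and 349, 336 and 399 CPM in wild-type HSD. It had 316, 284 and 295 CPM in mlx1 LSD and 295, 279 and 265 CPM in wild-type LSD. The wild-type HSD libraries were the 3 highest of all 12. It rose by 0.37 ± 0.09 on the log2 scale on HSD against LSD in wild type (adjusted p = 0.0154), and on HSD it was lower in mlx1 than in wild type, with a log2 fold change of -0.36 ± 0.09 (adjusted p = 0.0235). The rise was not called without wild-type HSD library C (adjusted p = 0.0647), wild-type LSD library B (0.0543) or wild-type LSD library C (0.0573), nor with the cuticle mean in the model (0.0818). The genotype difference was not called without mlx1 HSD library A (adjusted p = 0.0913), mlx1 HSD library C (0.0707) or wild-type HSD library C (0.0912), nor with the libraries' 5′ to 3′ ratio as a covariate (0.0837) or with every gene counted from its 5′-most exon (0.199). CG7461 has a single exon entry, so in that setting its own counts are the same and only the scaling and the other genes differ.

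scu (X:17985281-17986889, plus strand), a 3-hydroxyacyl-CoA dehydrogenase, the enzyme type of the third step of each round, showed small differences. It had 17.0, 18.7 and 19.2 CPM in mlx1 HSD, against 14.3, 11.4 and 14.0 CPM in wild-type HSD. It had 20.8, 16.1 and 16.5 CPM in mlx1 LSD, against 14.8, 14.0 and 12.2 CPM in wild-type LSD. Genotypes were without overlap on both diets, and the diets overlapped in both genotypes. The log2 fold change of mlx1 over wild type was 0.47 ± 0.14 on HSD (adjusted p = 0.0459) and 0.38 ± 0.14 on LSD (adjusted p = 0.180). The call on HSD was lost in 14 of 26 alternative settings. The counts of scu come from its first 2 exon entries, 243 of 1148 exonic bases, since its other 2 entries overlap each other and are 0 in all libraries.

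yip2 (2L:9915253-9917220, plus strand) encodes a thiolase, which releases acetyl-CoA at the end of each round. It had 311, 329 and 336 CPM in mlx1 HSD, against 116, 118 and 143 CPM in wild-type HSD. It had 308, 313 and 277 CPM in mlx1 LSD, against 236, 221 and 231 CPM in wild-type LSD. The groups of the 2 genotypes did not overlap on either diet, and neither did the diets in wild type. On HSD it was 2.59-fold higher in mlx1 (log2 fold change 1.37 ± 0.10, adjusted p = 4.70e-06). In wild type it fell by 0.87 ± 0.10 on HSD against LSD (adjusted p = 0.000173), whereas the mlx1 contrast was 0.12 ± 0.10 (adjusted p = 0.417).

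**Figure D1:**
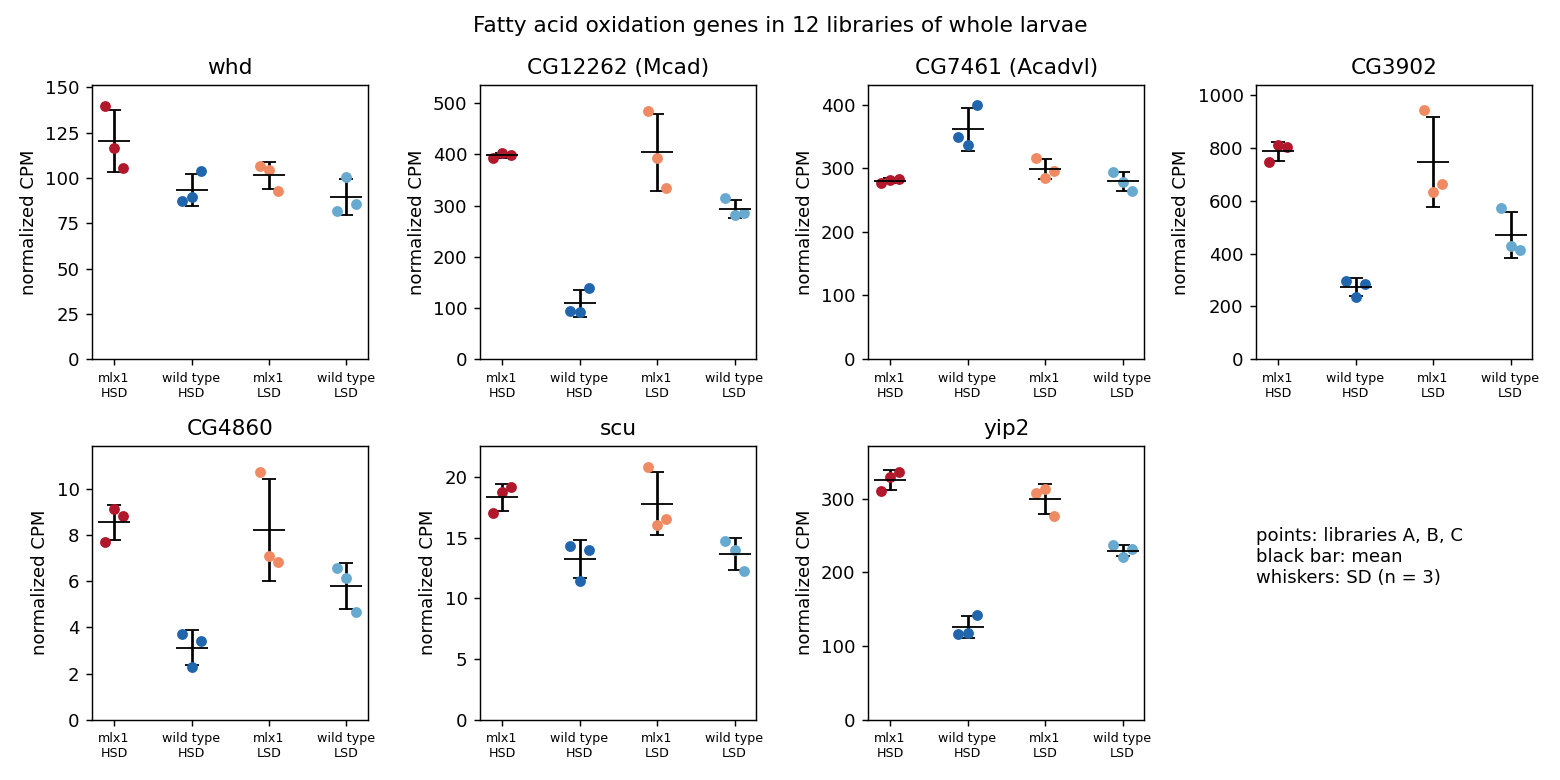
TMM-normalized CPM (vertical axes, linear, from 0) of the 7 genes in each library, by group; points are libraries A, B and C, the black bar is the mean and whiskers are the SD (n = 3). CG12262, CG3902, CG4860 and yip2 are lowest in wild-type HSD, where CG7461 is highest, and whd and scu vary little.

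The diet contrast compared HSD with LSD larvae within each genotype. In mlx1, 0 of the 7 members were called, against a background of 29.3% of all genes tested (13.5% higher and 15.7% lower), and the members' log2 fold changes ran from -0.09 (CG7461) to 0.25 (whd). The count was also 0 at an unadjusted p under 0.05 and by DESeq2. In wild type, 4 members fell and 1 rose, against 11.6% of all genes called lower and 11.5% called higher (23.1% in all). The HSD and LSD libraries of mlx1 overlapped for all members but CG7461, which was narrowly lower on HSD, where 21.5% of all genes lay higher and 23.2% lower without overlap. In wild type the 5 called members were without overlap, and so were 18.5% of all genes higher and 21.6% lower. The median member stood at -0.79 in wild type and 0.06 in mlx1, and the median of all genes at -0.05 and -0.01. These 2 contrasts share no libraries.

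Counted from only the 5′-most exon of each gene, wild-type calls were fewer: CG12262 alone remained called (log2 fold change -1.30, adjusted p = 0.000629). On that count CG3902 stood at -0.50 (adjusted p = 0.0701), yip2 at -0.41 (adjusted p = 0.147), and CG4860 at -1.19 (adjusted p = 0.265). CG7461, whose single entry is counted either way, stood at 0.25 (adjusted p = 0.168) after rescaling. From only the 3′-most exon, 4 members were called lower and 1 higher. With the libraries' 5′ to 3′ ratio as a covariate, CG12262, CG3902, CG4860 and yip2 were called lower and CG7461 was not called (adjusted p = 0.132). Over 6451 genes the median log2 fold change of HSD over LSD in wild type was 0.27 higher in the 5′-most than in the 3′-most exon. The same difference was 0.23 for whd, 0.26 for CG12262, 0.36 for CG3902 and 0.69 for yip2, but -0.21 for CG4860 and -0.34 for scu. Counts were low in the 5′-most entry used for CG4860 (0 to 15 reads per library) and whd (3 to 14). They were also low in the 3′-most entry used for scu (6 to 17), which is not its true 3′ end, since its later entries overlap.

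**Figure D2:**
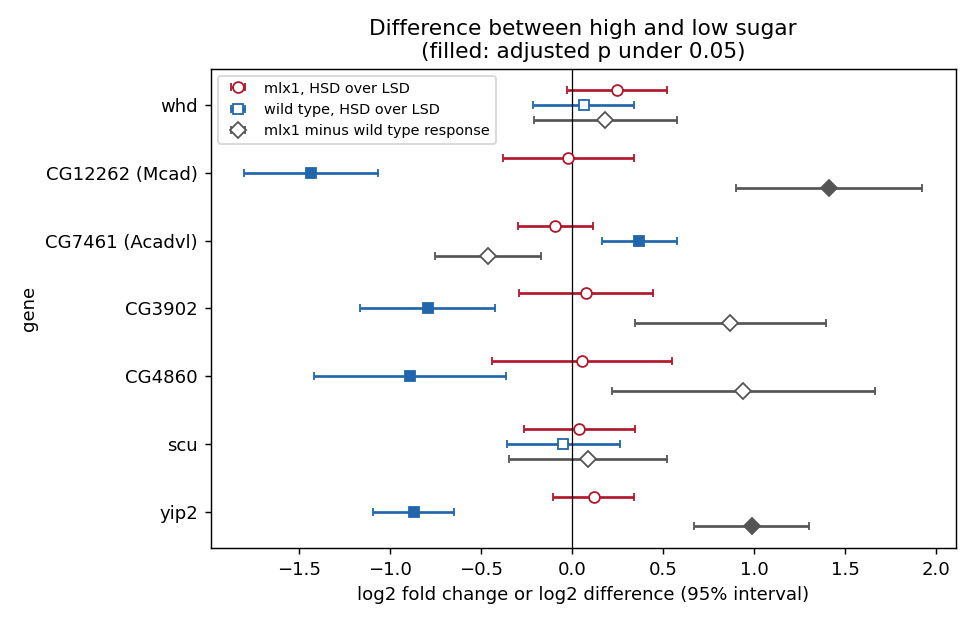
Log2 fold change of HSD over LSD in mlx1 (circles) and in wild type (squares), and the mlx1 response minus the wild-type response (diamonds), for each gene with 95% intervals; filled symbols passed an adjusted p under 0.05. All 7 mlx1 responses are open and near 0, while 5 wild-type responses are filled.

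The interaction is the test of whether the diet response differed between the genotypes. It was called for CG12262, whose mlx1 response exceeded the wild-type response by 1.41 ± 0.23 (log2, adjusted p = 0.00556), and for yip2, at 0.99 ± 0.14 (adjusted p = 0.00321). That is 2 of 7 members, against 3.32% of all genes called in this direction, 3.57% in the other and 6.89% in all. CG3902 (0.87 ± 0.24, adjusted p = 0.0511), CG7461 (-0.46 ± 0.13, adjusted p = 0.0602) and CG4860 (0.94 ± 0.33, adjusted p = 0.108) missed the threshold, with 95% intervals of 0.35 to 1.39, -0.75 to -0.17 and 0.22 to 1.66. For whd (0.18 ± 0.18, adjusted p = 0.566) and scu (0.09 ± 0.20, adjusted p = 0.827) the intervals were -0.21 to 0.58 and -0.35 to 0.52. From the 5′-most exon alone yip2 stood at 0.52 (adjusted p = 0.262) and CG12262 at 1.40 (adjusted p = 0.0130), and with the 5′ to 3′ ratio as a covariate both were called (adjusted p = 0.0474 each). CG3902 was called in 10 of 25 alternative settings (adjusted p = 0.00333 to 0.182), CG7461 in 6 (0.00231 to 0.379) and CG4860 in 2 (0.0403 to 0.412). With the cuticle mean in the model all 3 were called, at 1.02, -0.39 and 1.10 (adjusted p = 0.00333, 0.0457 and 0.0403).

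The genotype contrast asked what larvae lacking Mlx express on each diet. On HSD 5 members were higher and 1 was lower in mlx1, against 6.8% and 7.07% of all genes (13.9% in all), and the median member stood at 1.37 against 0.00 for all genes. The libraries of the 2 genotypes did not overlap for any of the 7 on HSD, where 19.2% of all genes lay higher and 18.6% lower without overlap. On LSD 0 members were called, against 3.59% of all genes (1.82% higher and 1.77% lower), and by unadjusted p under 0.05 the count was 5. CG12262, CG3902, CG4860, scu and yip2 were higher in all mlx1 LSD than in all wild-type LSD libraries, where 9.26% of all genes were (and 9.38% were lower), with log2 fold changes of 0.38 (scu and yip2) to 0.66 (CG3902). DESeq2 called CG3902 (adjusted p = 0.00549) and yip2 (adjusted p = 0.00490) on LSD. The calls of CG12262, CG3902 and yip2 on HSD held in all 26 alternative settings, with log2 fold changes of 1.73 to 2.09, 1.38 to 1.70 and 1.25 to 1.47. That of CG4860 was lost only in the 5′-most exon (1.66, adjusted p = 0.149), where the entry used held 0 to 15 reads per library.

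**Figure D3:**
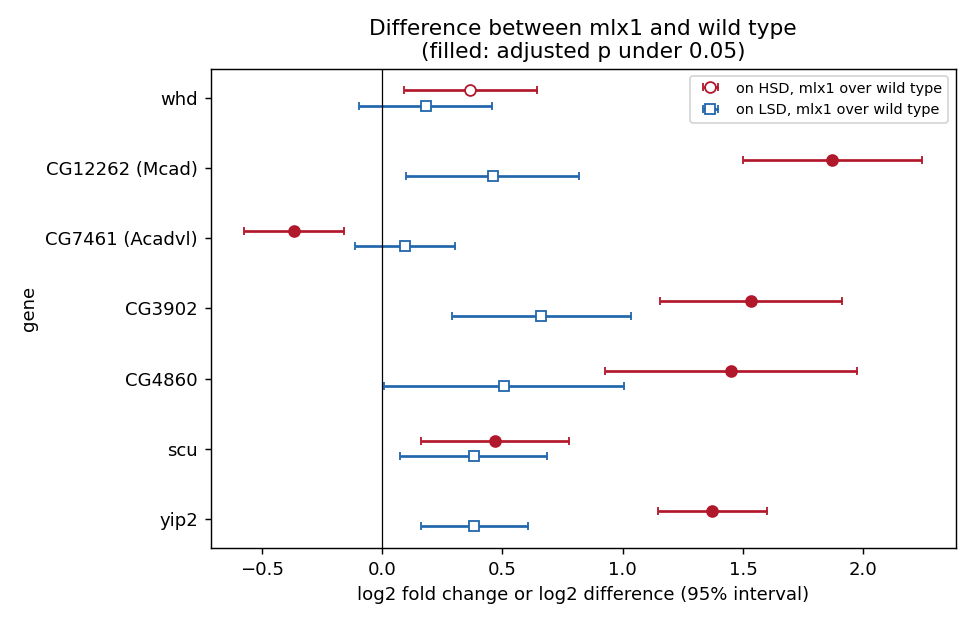
Log2 fold change of mlx1 over wild type on HSD (circles) and on LSD (squares) for each gene, with 95% intervals; filled symbols passed an adjusted p under 0.05. On HSD 6 of the 7 are filled, with CG12262 highest and CG7461 below 0, and on LSD all are open.

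Both conditions, lower on HSD in wild type and higher in mlx1 than in wild type on HSD, were met by 4 of 7 members and by 178 genes, or 1.77% of those tested. Both contrasts use the wild-type HSD libraries, so they are not independent. Adding a called interaction above 0 left CG12262 and yip2 and 96 genes, or 0.956%. Summed over the 7 genes, the libraries held 1892, 1971 and 1955 CPM in mlx1 HSD and 962, 884 and 1088 CPM in wild-type HSD. The sums were 2190, 1751 and 1686 CPM in mlx1 LSD and 1520, 1330 and 1298 CPM in wild-type LSD.

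Levels per length, in CPM per kb of exon that overlaps no other entry, gave one order of genes in mlx1 HSD, mlx1 LSD and wild-type LSD. From high to low it was CG3902, CG12262, yip2, CG7461, scu, whd and CG4860, with no overlap between neighbours in any of these groups. In mlx1 HSD the means ran from 455 ± 11.8 (CG3902) to 6.14 ± 0.542 (CG4860), and in wild-type LSD from 258 ± 57.5 to 4.16 ± 0.717 CPM per kb (SD, n = 3). In wild-type HSD the order differed: CG7461 led at 179 ± 16.6, overlapping CG3902 at 169 ± 11.5, and CG12262 at 74.6 ± 17.9 lay below yip2 at 90.3 ± 10.6 CPM per kb, also with overlap.

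The table lists counts per exon, so each difference could be followed along the gene. Of the 6 members with 2 or more tested exon entries, 0 had a called difference in exon usage in any contrast (edgeR's diffSpliceDGE with Simes p, adjusted over 7251 genes, of which 0.165% were called for diet in mlx1, 0.303% for diet in wild type, 0.414% for genotype on HSD, 0.248% for genotype on LSD and 0.0276% for the interaction). The lowest unadjusted Simes p, and the only one under 0.05, was that of whd for genotype on HSD (0.0205, adjusted p = 1.00). There exon entry 10 stood at a log2 fold change of -0.46, while the other 8 tested entries lay between 0.14 and 1.27. In CG12262 all 3 entries were higher in mlx1 on HSD, at 1.63 to 1.91, and lower on HSD in wild type, at -1.23 to -1.50. In yip2 the 4 entries agreed for genotype on HSD, at 1.17 to 1.45, but split for diet in wild type, with -0.35 and -0.37 in the first 2 and -0.98 and -1.04 in the last 2. CG3902 entries ran from 1.30 to 1.62 for genotype on HSD. For diet in wild type they ran from -0.98 (entry 1) to -0.44 (entry 4). Entry 1 of CG3902 overlaps an exon of another gene, and in mlx1 HSD library A it held 3850 of the gene's 6896 counts.

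**Figure D4:**
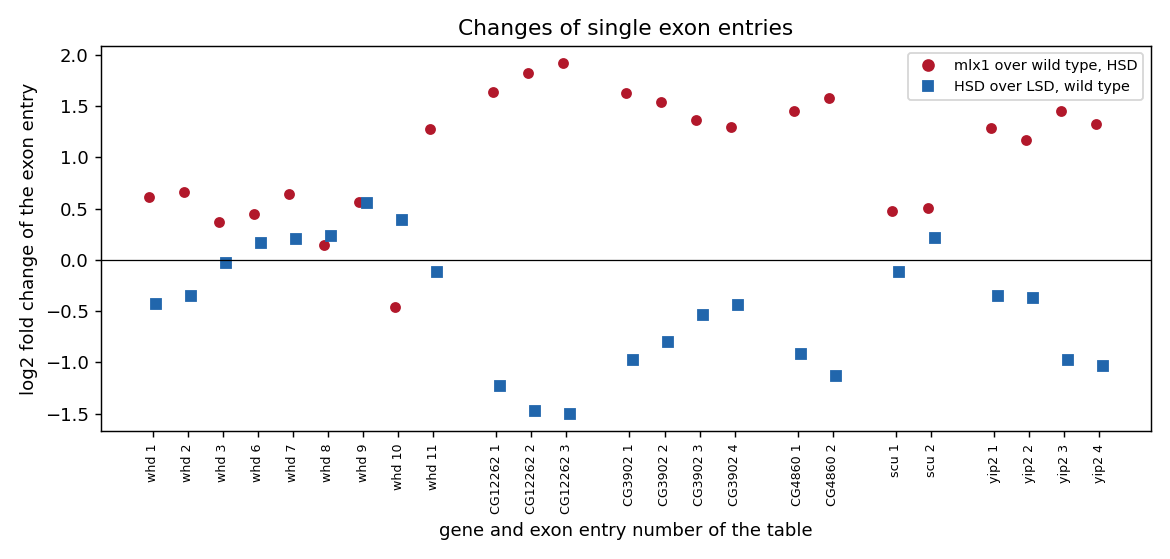
Log2 fold change (vertical axis) of each tested exon entry of 6 genes (horizontal axis, numbered as in the table, which follows the chromosome and not the direction of transcription), for mlx1 over wild type on HSD (circles) and HSD over LSD in wild type (squares). Entries of CG12262, CG3902, CG4860 and yip2 lie above 0 for genotype and below 0 for diet, while those of whd scatter around 0 for diet.

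The profiles most like each member were found by the root mean square difference of log2 CPM over the 12 libraries, centred per gene. They were sought among 7110 genes with a mean of at least 10 CPM (7111 for CG4860). CG4860 itself lay below that mean, so it was not a candidate for the other members. CG3902 was the nearest to CG4860 (0.138), and CG5599 (Dbct), a branched-chain keto acid dehydrogenase subunit, was the nearest to yip2 (0.165) and second for CG3902 (0.198) and CG4860 (0.214). Among the candidates CG3902 had CG10960 (nebu) first (0.195), farther than its distance of 0.138 to CG4860, and CG12262 had CG31075 (0.168) and CG9040 (0.183). yip2 was the fourth nearest candidate to both CG12262 and CG3902. CG34331 came second for yip2 (0.195). Nearest to whd were iPLA2-VIA (0.108), a phospholipase, and Vha100-1 (0.111), to scu l(1)G0255 (Fum1, 0.0906), a fumarase, and CG8778 (0.101), and to CG7461 Rootletin (0.0846) and put (0.0931). The nearest other member ranked 315 for scu, 696 for whd and 3199 for CG7461. With 12 libraries in 4 groups, near profiles are a description only, and scatter within groups enters the distance.

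Other genes near the pathway were read from lists of genes by role. Of 18 other mitochondrial genes listed under beta-oxidation, carnitine transfer and electron transfer, 17 could be tested, and colt was listed at 0 in every library. That list does not give the substrates of its enzymes, so not all need act on fatty acids. On HSD 5 were higher and 1 was lower in mlx1, with a median of 0.22, against 13.9% of all genes called in either direction. CG6543 (Echs1), the enoyl-CoA hydratase of the second step, averaged 624 ± 5.09 CPM in mlx1 HSD and 322 ± 38.9 CPM in wild-type HSD (log2 fold change 0.96 ± 0.14, adjusted p = 0.000621). wal, a subunit of the electron transfer flavoprotein that takes electrons from all acyl-CoA dehydrogenases, averaged 615 ± 11.3 CPM in mlx1 HSD and 355 ± 33.3 CPM in wild-type HSD (0.79 ± 0.10, adjusted p = 0.000201). The acyl-CoA dehydrogenase CG6638 (0.77 ± 0.12, adjusted p = 0.000941), CG10932 (Acat1), a thiolase (0.77 ± 0.13, adjusted p = 0.00241), and CG9547, another acyl-CoA dehydrogenase, named here after its value was seen (0.86 ± 0.19, adjusted p = 0.0101), were also higher. CG4592 was lower, at 12.1 ± 1.10 CPM in mlx1 HSD and 27.0 ± 4.59 CPM in wild-type HSD (-1.16 ± 0.16, adjusted p = 0.000546). The enzymes flanking whd and the trifunctional protein, named here for their place in the pathway after their values were seen, were not called on HSD: CG2107 (CPT2) at 0.22 ± 0.14 (adjusted p = 0.357), Mtpalpha at -0.18 ± 0.15 (adjusted p = 0.498) and Thiolase (Mtpbeta) at 0.02 ± 0.10 (adjusted p = 0.933).

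For diet, 2 of the 17 rose and 4 fell in wild type (median -0.20), and 1 rose and 1 fell in mlx1 (median -0.14). Of all genes 23.1% were called in wild type and 29.3% in mlx1. In wild type CG10932 fell by 0.52, CG6638 by 0.50 and CG13890 (Dci) by 0.49, and CG4592 rose by 0.76 and CG4594 by 0.62 on the log2 scale (adjusted p = 0.0152, 0.00947, 0.0190, 0.00581 and 0.00765). In mlx1 CG9149 (Acat2) fell by 0.56 (adjusted p = 0.0107) and CG4594 rose by 0.45 (adjusted p = 0.0284). On LSD 2 were higher in mlx1, CG9547 (1.11 ± 0.19, adjusted p = 0.00672) and wal (0.39 ± 0.10, adjusted p = 0.0472), and CG4592 was lower (-0.70 ± 0.16, adjusted p = 0.0354). Of all genes 3.59% were called on LSD. The call of wal on LSD was lost in 19 of 26 alternative settings, the letter block among them (adjusted p = 0.0522), and that of CG4592 in 12. The interaction was called for 0 of the 17 by edgeR (6.89% of all genes), for 2 by DESeq2, and 3 had an unadjusted p under 0.05.

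Of 10 peroxisomal genes reported, 3 were higher and 1 was lower in mlx1 on HSD (13.9% of all genes called). With diet in wild type 0 rose and 1 fell (23.1% of all genes called). The acyl-CoA oxidase CG4586 averaged 48.8 ± 6.06 CPM in mlx1 HSD and 21.3 ± 2.16 CPM in wild-type HSD, and 52.7 ± 4.67 CPM in mlx1 LSD and 50.9 ± 3.04 CPM in wild-type LSD. Its log2 fold change was 1.19 ± 0.12 for genotype on HSD (adjusted p = 4.82e-05) and -1.25 ± 0.12 for diet in wild type (adjusted p = 4.45e-05). Acox57D-p (0.60 ± 0.17, adjusted p = 0.0335) and CG9577 (0.48 ± 0.12, adjusted p = 0.0201) were also higher on HSD in mlx1, and CG9527 (Acox3, a fold of 0.501, adjusted p = 0.00811) was lower. CG9527 was also the 1 gene that fell with diet in mlx1 (-0.60 ± 0.21, adjusted p = 0.0484), a call lost in 15 of 26 alternative settings, and its mlx1 HSD and LSD libraries overlapped. DESeq2 called 2 of the 10 for that contrast.

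Genes that activate or bind fatty acids went both ways. Of 8 tested of 9 listed, 2 were higher and 3 lower in mlx1 on HSD (13.9% of all genes called). In wild type 3 rose and 3 fell with diet (23.1% of all genes called). The acyl-CoA synthetase pdgy averaged 39.9 ± 2.87 CPM in mlx1 HSD and 14.2 ± 2.80 CPM in wild-type HSD (1.49 ± 0.15, adjusted p = 4.98e-05). Acsl, a long-chain acyl-CoA synthetase, averaged 168 ± 18.3 CPM in mlx1 HSD and 409.5 ± 67.7 CPM in wild-type HSD (-1.28 ± 0.16, adjusted p = 0.000239), and Dbi (Acbp2), an acyl-CoA binding protein, 302 ± 34.3 CPM in mlx1 HSD and 539 ± 59.2 CPM in wild-type HSD (-0.84 ± 0.16, adjusted p = 0.00433). bgm was lower (-1.03 ± 0.25, adjusted p = 0.0189) and CG12512 (Acsf2) higher (0.52 ± 0.15, adjusted p = 0.0390) in mlx1 on HSD. In wild type Acsl rose by 1.19, Dbi by 1.11 and bgm by 1.06 on HSD against LSD, and pdgy fell by 0.51 and CG4500 (hll) by 1.33. In mlx1 CG12512 rose by 0.82 and pdgy by 0.52. Of 2 tested ketone body genes, CG1140 (SCOT) was higher in mlx1 on HSD, at 300.1 ± 18.8 CPM against 179 ± 15.8 CPM in wild-type HSD (0.74 ± 0.11, adjusted p = 0.000820).

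Fatty acid synthesis genes were higher on HSD and lower in mlx1. Of 7 tested, 6 rose with diet in wild type and 5 in mlx1 (11.5% and 13.5% of all genes). On each diet 5 were lower in mlx1 than in wild type (7.07% of all genes on HSD and 1.77% on LSD). ACC, which makes the malonyl-CoA that inhibits the step of whd, averaged 1078 ± 64.7 CPM in mlx1 HSD and 3469 ± 588 CPM in wild-type HSD, and 321 ± 53.5 CPM in mlx1 LSD and 597 ± 95.9 CPM in wild-type LSD. Its log2 fold change was -1.69 ± 0.16 for genotype on HSD (adjusted p = 3.24e-05) and 2.54 ± 0.17 for diet in wild type (adjusted p = 2.34e-06). CG3523 (FASN1), ATPCL, AcCoAS and desat1 (Desat1) were 3.87-fold, 7.55-fold, 2.92-fold and 3.99-fold lower in mlx1 on HSD (adjusted p = 2.38e-05, 3.48e-05, 1.52e-05 and 2.88e-06), although desat1 stood at a log2 fold change of 0.10 (adjusted p = 0.858) in its 5′-most exon alone.

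Among 7 regulators, bmm, the brummer triglyceride lipase that frees fatty acids from fat stores, was called in the same directions as CG12262 in both contrasts. It averaged 171 ± 23.0 CPM in mlx1 HSD and 34.2 ± 5.11 CPM in wild-type HSD, and 112 ± 5.19 CPM in mlx1 LSD and 69.5 ± 11.8 CPM in wild-type LSD. Its log2 fold change was 2.32 ± 0.16 for genotype on HSD (adjusted p = 1.71e-06), and -1.02 ± 0.15 for diet in wild type (adjusted p = 0.000748). Unlike CG12262 it was also called higher on HSD in mlx1 (0.61 ± 0.15, adjusted p = 0.00911) and in mlx1 on LSD (0.69 ± 0.15, adjusted p = 0.0248), the last not with the letter block (0.0511). Hnf4, a nuclear receptor known to promote fatty acid oxidation in larvae, was higher in mlx1 on HSD (0.61 ± 0.16, adjusted p = 0.0243), and Spargel (srl), the fly PGC-1, lower (-0.73 ± 0.17, adjusted p = 0.0128). Spargel fell with diet by 1.50 in mlx1 (adjusted p = 6.19e-05) and by 0.58 in wild type (adjusted p = 0.0264). GRHR (AkhR), the receptor of adipokinetic hormone, rose with diet by 1.61 ± 0.18 in mlx1 (adjusted p = 6.19e-05) and by 1.87 ± 0.18 in wild type (adjusted p = 4.88e-05).

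**Figure D5:**
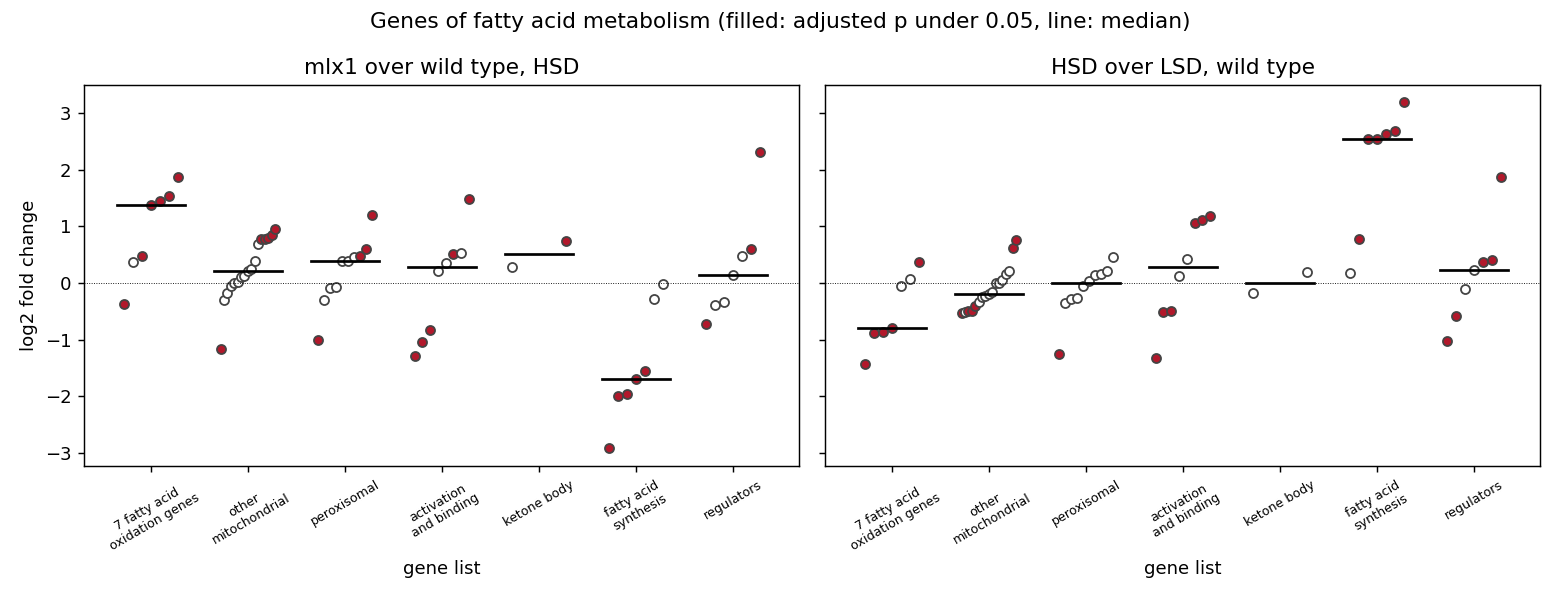
Log2 fold change of every tested gene of the 7 lists, for mlx1 over wild type on HSD (left) and HSD over LSD in wild type (right); points are genes, filled where the adjusted p was under 0.05, and the line is the list's median. The 7 oxidation genes have a median of 1.37 on the left and -0.79 on the right, and fatty acid synthesis genes -1.69 and 2.55.

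Markers of tissues in the whole larva were compared beside these results. Of all genes 13.9% were called for genotype on HSD, 23.1% for diet in wild type and 29.3% for diet in mlx1. Summed muscle markers (8 of 8 detected) ranged from 72050 to 78315 CPM in mlx1 HSD and from 62442 to 67909 CPM in wild-type HSD, and 1 of the 8 genes was called higher in mlx1. Summed oenocyte markers (4 of 5 detected, CG10097 at 0) ranged from 711 to 982 CPM in mlx1 HSD and from 686 to 852 CPM in wild-type HSD. Fat body markers (7 listed, 2 of which could be tested) summed to 18.4 to 21.4 CPM in mlx1 HSD and 25.3 to 28.5 CPM in wild-type HSD, without overlap, with Fbp1 at 0 in all groups and Lsp2 at 0 in wild type. Midgut markers (7 of 7) summed to 2464 to 2863 CPM in mlx1 HSD and 2897 to 4077 CPM in wild-type HSD, with 3 called lower in mlx1. Hemocyte markers (5 of 5) summed to 214 to 252 CPM in mlx1 HSD and 249.7 to 326 CPM in wild-type HSD, and neuron markers (4 of 4) to 377 to 434 CPM in mlx1 HSD and 367 to 454 CPM in wild-type HSD. For genotype on HSD edgeR and DESeq2 called 0 oenocyte, fat body, hemocyte and neuron markers, of which 0, 1, 2 and 0 had an unadjusted p under 0.05. For diet in wild type, 6 of the 7 midgut markers rose, with a median log2 fold change of 0.69, and their sum was 2897 to 4077 CPM in wild-type HSD and 1531 to 1951 CPM in wild-type LSD. In the same contrast 2 of 8 muscle, 1 of 4 oenocyte, 1 of 2 fat body and 1 of 5 hemocyte markers rose, 0 of these fell, and 0 of 4 neuron markers were called by edgeR or DESeq2 or had an unadjusted p under 0.05. Summed fat body markers were 25.3 to 28.5 CPM in wild-type HSD and 12.6 to 19.9 CPM in wild-type LSD. The fat body marker that rose was GRHR (AkhR), also reported among the regulators. It had 18.3 to 20.6 CPM in wild-type HSD and 4.27 to 6.76 CPM in wild-type LSD. GRHR made up most of the sum in every HSD library of both genotypes. The other tested fat body marker stood at -0.44 in wild type, not called. Of the oenocyte markers, v(2)k05816 (FASN2), the 1 that rose, and CG17374 (FASN3) are also listed as synthesis genes. In mlx1, where 0 of the 7 members were called, 4 of the 7 midgut markers rose with diet. Their sum was 2464 to 2863 CPM in mlx1 HSD and 1676 to 2038 CPM in mlx1 LSD. There 2 of 4 oenocyte, 1 of 8 muscle and 1 of 5 hemocyte markers also rose. Of the 2 tested fat body markers GRHR rose and the other fell, and 0 of 4 neuron markers were called. The part of tissue make-up in the members' differences was not tested.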

How the data were processed

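Polyadenylated RNA of whole third-instar larvae was sequenced in 12 libraries, 3 in each of 4 groups of genotype and diet. What the authors deposited is 1 table of integer counts, 1 row per exon entry and 1 column per library, not scaled in any way. Per the submitters' processing notes, BWA 0.5.9, SAMtools and HTSeq 0.6.1 were used, and build, annotation release and strandedness were not given in the sources used here. The table holds 82046 exon entries, of which 36.0% overlap another; 67.2% of those are 0 in all libraries, against 9.3% of the rest, so reads in overlapping exons may be missing. A further 42 entries name no gene (at most 0.0148% of a library) and were left out.

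Counts were summed per gene, filtered with filterByExpr (10045 genes) and fitted with edgeR 4.0.16 (R 4.3.3, TMM, robust quasi-likelihood, 1 mean per group, common dispersion 0.0619). Tests were two-sided. CPM were computed from TMM-scaled library sizes, with factors of 0.961 to 1.048. Positions are those of the table, and strands and the symbols in parentheses come from the Ensembl and RefSeq annotation. Strand placed the 5′-most and 3′-most exons, and only entries that overlap no other and passed the filter on low counts were used there.

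DESeq2 1.42.0, other scalings, filters, covariates and left-out libraries were alternatives, and the 5′ and 3′ settings and that without 3 libraries were added after seeing the data. The tests were tested on simulated data. The rule named all 7 members, up to 5 called genes per list and contrast with the lowest adjusted p, and the 2 nearest profiles per member. The members and lists were chosen with earlier results of these data known, and 1 listed gene is not reported here. Whether a group's libraries came from separate cultures is not labelled, so p-values reflect only their spread, which may be technical. Same-letter deviations of the mlx1 and wild-type LSD libraries correlated at 0.73 (A), 0.67 (B) and 0.17 (C), though no label states a pairing. No other pair of groups had a same-letter correlation over 0.1 for every letter. Unlike letters could reach this too: wild-type HSD libraries C, A and B correlated with wild-type LSD libraries A, B and C at 0.639, 0.495 and 0.162. Pairing by letter was therefore not established. The libraries' depth gives each member 22 or more reads per library.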

Additional observations from a re-analysis of the deposited data

Results flagged for a closer look

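Each gene here had a diet response that differed between the genotypes by the test of the interaction in edgeR (adjusted p under 0.05), given as the mlx1 response minus the wild-type response on the log2 scale. Among the 7 oxidation genes these were CG12262 at 1.41 and yip2 at 0.99. Of the peroxisomal genes reported, CG4586 stood at 1.15. Of the genes that activate or bind fatty acids, pdgy stood at 1.03, Acsl at -1.37 and Dbi (Acbp2) at -0.96. Of the synthesis genes, ATPCL stood at -2.18, desat1 at -1.33 and AcCoAS at -0.90. Of the regulators, bmm stood at 1.63 and Spargel (srl) at -0.92. The calls of Spargel, Dbi and AcCoAS were lost in 12, 9 and 6 of 25 alternative settings. No outlier test of single libraries was run, but leaving out each library in turn was among the alternative settings.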

How the results depend on the processing

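Over 903 comparisons of the 7 genes under alternatives, 834 stayed on their side of the threshold, 33 lost a call, 36 gained one and 0 of the called ones changed sign. Members called for genotype on LSD (0 in the reported fit) numbered 1 with RLE factors, no filter, at least 5 CPM in 3 libraries, the replicate block, without exons overlapping another gene, the cuticle covariate, without the 3 libraries lowest in cuticle genes or from the 3′-most exon, and 2 with DESeq2 or from the 5′-most exon. Members called for the interaction (2) numbered 4 with RLE factors, DESeq2 or at least 5 CPM, 5 with the cuticle covariate and 1 from the 5′-most exon, which also left 1 for diet in wild type (5).

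All genes called for genotype on LSD (361) numbered 640 with DESeq2, 122 with only the groups compared, 198 from the 5′-most exon and 210 with the 5′ to 3′ covariate. For the interaction (692) they numbered 1191 with DESeq2, 1113 with the cuticle covariate, 405 from the 5′-most and 426 from the 3′-most exon and 79 with the 5′ to 3′ covariate (50 higher and 29 lower, against 333 and 359), while the split was 290 higher and 472 lower without exons overlapping another gene. They numbered 2154 for genotype on HSD (1393) with the cuticle covariate and 796 from the 5′-most exon, 1098 for diet in wild type (2318) with the 5′ to 3′ covariate and 1245 from the 5′-most exon, and 1518 for diet in mlx1 (2941) from the 5′-most exon. Without 1 library each, members called ranged from 3 to 5 for diet in wild type, 4 to 6 for genotype on HSD, 0 to 1 for genotype on LSD and 2 to 4 for the interaction. All genes called then ranged from 2025 to 3090 for diet in mlx1, 1423 to 2755 for diet in wild type, 825 to 1677 for genotype on HSD, 180 to 441 for genotype on LSD and 271 to 1021 for the interaction. The fewest came without mlx1 HSD library A for diet in mlx1, genotype on HSD and the interaction, and without wild-type LSD library B for diet in wild type and genotype on LSD. From the 5′-most exon 3 other named values changed sign: desat1 to 0.10 for genotype on HSD and 0.18 for the interaction, and ERR to -0.035 for diet in mlx1. The cause was not tested. Other named calls lost in 10 or more of 26 alternatives were those of CG12512 for genotype on HSD (10), bmm (10), CG4592 (12) and wal (19) for genotype on LSD, CG9527 for diet in mlx1 (15) and ERR for diet in wild type (16) and in mlx1 (17, beside the change of sign).

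A pairing of libraries by letter was not established. The correlation of same-letter deviations ran from -0.53 to 0.73, with 8 of 18 over 0.1. For unlike letters it ran from -0.73 to 0.64, with 14 of 36 over 0.1, and 6 of 12 libraries correlated best with their own letter. With the replicate block, genotype calls on LSD numbered 336, and CG3902 gained and wal and bmm lost a call there. CG4860, with 22 to 132 reads, and scu, with 243 counted bases, are the members that depth limits most.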
